A study of Mus musculus with 2 samples.

Results

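Colony-stimulating factors and related growth signals of macrophages are described here through 6 genes: the ligand genes Csf1, Il34, Csf2, Csf3 and Il15, and the receptor gene Csf1r. They were taken by symbol from a deposited table of read counts with 35275 Ensembl gene identifiers, and all 6 were found. In GENCODE M21, Csf1 lies on chromosome 3, Csf2 and Csf3 on 11, Il34 and Il15 on 8, and Csf1r on 18. RNA sequencing compared mesenchymal stem/progenitor cells (MSPC), stromal cells of bone marrow that can form bone, cartilage and fat, between a control and a mutant genotype. Control mice were Ptpn11+/+ and mutant mice Ptpn11E76K/+, both were Nestin-Cre+ on the C57BL/6 strain, and each genotype has 1 library. Ptpn11 encodes SHP2, a phosphatase that works below growth factor receptors and feeds into RAS-ERK signalling, and the E76K change activates it. In the series' design text 2 replicates are mentioned, whereas the deposited table has a single column for each genotype. The sources used here give neither the age of the mice, nor whether animals were pooled, nor how widely Cre was active in the sorted cells. The sort kept marrow cells without CD45, Ter-119 and CD31, which mark blood, erythroid and endothelial cells, and with CD140 and Sca-1.

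CSF1 (M-CSF) is the main growth and survival factor of macrophages and their precursors, and stromal cells and osteoblasts are known sources of it in marrow. It acts through the tyrosine kinase receptor CSF1R, which IL-34, a ligand of unrelated sequence, also binds. CSF2 (GM-CSF) and CSF3 (G-CSF) drive granulocyte and macrophage production through cytokine receptors. IL-15 supports natural killer cells and memory T cells, and is usually presented on the surface of the producing cell by its receptor chain IL15RA.

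Csf1 carried nearly all counts of the group, so the region before its start is shown. The sequence is the RefSeq window of GRCm38.p6 at chr3:107760470-107760719, minus strand, 250 bases read 5′ to 3′ up to the base before the start. Capitals mark matches to an NF-kB motif (GGGA, then 4 bases of any kind, then CC) and to the Sp1 motif GGGCGG, searched on both strands.
Csf1: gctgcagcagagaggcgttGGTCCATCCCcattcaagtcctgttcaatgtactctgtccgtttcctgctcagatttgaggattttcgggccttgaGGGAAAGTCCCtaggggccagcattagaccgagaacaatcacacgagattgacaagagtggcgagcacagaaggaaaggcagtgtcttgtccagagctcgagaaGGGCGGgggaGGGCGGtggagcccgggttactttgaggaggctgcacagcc
The NF-kB letters matched 3 times, and 2 of these matches overlap on opposite strands. Such a match was present in 17.6% of 32817 windows of the same length. GGGCGG matched 2 times and was present in 32.7% of windows. The AP-1 motif TGANTCA (6.75% of windows), TATAAA (12.4%) and an interferon response motif (GAAA, then 2 bases of any kind, then GAAA, 2.97%) had no match. These matches describe letters, not occupied sites. Some annotated Csf1 transcripts start further downstream, and gene counts do not tell the starts apart.

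Depth was 22328659 counts for the control library, with 17887 genes detected, and 18010963 counts for the mutant library, with 17185. Levels are in CPM, counts per 1000000 counts of a library total scaled with TMM factors, and are given per kilobase of the longest transcript when genes are compared. Intervals are 95% exact Clopper-Pearson intervals that cover counting error only. With 1 library per genotype there is no spread between animals, no test of the genotypes and no replicate check of any difference. A gene with at least 20 counts over both libraries is called measured, and a measured gene counts as called if no part of its interval lies within 2-fold of equality. By this rule 15.3% of 13142 measured genes were called, 6.98% as higher and 8.29% as lower in the mutant library. Of all calls 45.7% were higher. With totals that omit the 100 most abundant genes, which shifts every log2 ratio by -0.13, this was 35.6%. Ptpn11 had 5958 and 5039 counts in control and mutant, which does not tell the alleles apart. Of the genes behind the sort, Ly6a (Sca-1) had 2177 and 612 counts, Pdgfra (CD140a) 2073 and 1792, Ptprc (CD45) 1 and 12, and Pecam1 (CD31) 5 and 2.

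Of the 6 genes, 4 were measured, 1 of these (Il15) was called lower and 0 were called higher in the mutant library. The share of 1 in 4 rests on a single gene, which was measured by virtue of its control counts. This share is read beside the 8.29% of all measured genes that were called lower. Csf1 was close to equal in both libraries, Il34 was at 0.465 of its control level without being called, and Csf1r was at 2.04 times its control level without being called. Csf2 and Csf3 were near 0 in both. With a threshold of 1.5-fold in place of 2-fold, Il15, Il34 and Csf1r were all called, which is 3 of 4 genes beside 31.3% of all measured genes. In bulk samples, fewer cells of a type and less RNA per cell cannot be told apart, which holds for each difference given here.

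**Figure D1:**
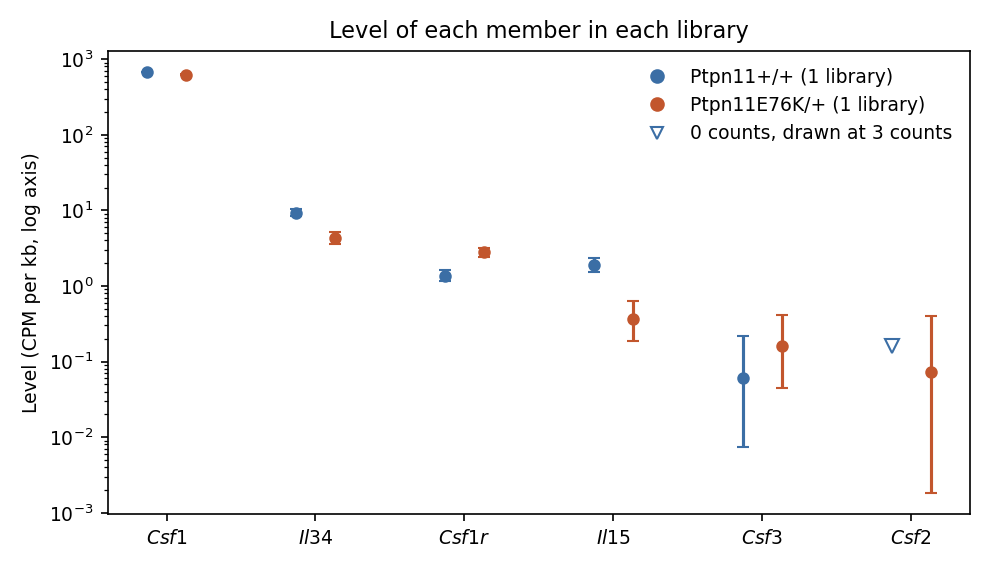
Level of each of the 6 genes in CPM per kilobase (log axis) in the Ptpn11+/+ and the Ptpn11E76K/+ library, with 95% counting intervals. Csf1 lies near 675 and 626, the other genes below 10, and the open triangle marks Csf2 with 0 counts, drawn at the floor of 3 counts.

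Csf1 was counted 65215 times in the control library and 45459 times in the mutant one. These are 0.292% of all counts in the control (0.290 to 0.294) and 0.252% in the mutant (0.250 to 0.255). Csf1 was the gene with rank 19 by counts in the control and rank 24 in the mutant library, and made up 99.1% and 99.2% of the counts of the 6 genes. Per kilobase its level was 675 CPM in the control (670 to 680) and 626 in the mutant (620 to 632), which is rank 45 of 17718 and rank 100 of 17033 detected genes. The ratio of mutant to control was 0.927 (0.916 to 0.938), so the libraries differed beyond counting error, but by far less than 2-fold. Of all measured genes 44.4% had a lower ratio. Beside the other stromal factors that act on blood cells, Csf1 per kilobase stood 333-fold above Kitl, the stem cell factor gene, in the control (295 to 377) and 71.3-fold in the mutant (66.7 to 76.4). It stood 9.01-fold above Cxcl12, the chemokine gene that retains blood stem cells, in the control (8.82 to 9.21) and 28.3-fold in the mutant (27.1 to 29.6). These 2 gaps moved in opposite directions, since Kitl was higher and Cxcl12 lower in the mutant library while Csf1 stayed near its level.

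Il34, which encodes the other ligand of CSF1R, was counted 386 times in the control library and 135 times in the mutant one. Its level was 9.29 CPM per kilobase in the control (8.39 to 10.3) and 4.32 in the mutant (3.63 to 5.12), and these intervals do not overlap. It was 2.15-fold lower in the mutant (1.76 to 2.64), and the interval reaches below 2-fold, so Il34 was not called. After removal of trends with transcript length and GC content it was 2.51-fold lower (2.06 to 3.08) and was called, where 7.67% of measured genes were called lower. Csf1 per kilobase was 72.7 times the level of Il34 in the control (65.7 to 80.5) and 145 times in the mutant (122 to 173). This ratio within a library needs no scaling between libraries, and it was 1.99-fold larger in the mutant (1.63 to 2.44). A pair of annotated genes on the opposite strand, Gm15894 (34 and 6 counts) and Gm15895 (11 and 0), overlap exons of Il34. Whether the counting used strand was not given in the sources used here, so reads of Il34 and of these antisense genes cannot be told apart.

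Csf1r, which encodes the receptor of both ligands, was counted 149 times in the control library and 229 times in the mutant one. Its level was 1.37 CPM per kilobase in the control (1.16 to 1.61) and 2.80 in the mutant (2.45 to 3.19), with intervals that do not overlap. The ratio was 2.04 (1.66 to 2.53), the interval reaches below 2-fold, and Csf1r was not called. Of all measured genes 89.7% had a lower ratio. Csf1 exceeded Csf1r per kilobase by 493-fold in the control (420 to 583) and by 224-fold in the mutant (196 to 256), so this excess of ligand over receptor transcript was 2.21-fold smaller in the mutant (1.79 to 2.73). Exons of Csf1r overlap those of Hmgxb3 on the opposite strand, which had 689 and 700 counts and a ratio of 1.35 (1.215 to 1.503). Reads in the parts where this pair overlaps likewise cannot be assigned with certainty. The nearest protein-coding gene before Csf1r on chromosome 18 is Pdgfrb, a CD140 gene, with 6075 and 3721 counts. Pdgfrb per kilobase was 35.3 times Csf1r in the control (30.0 to 41.9) and 14.1 times in the mutant (12.3 to 16.2).

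**Figure D2:**
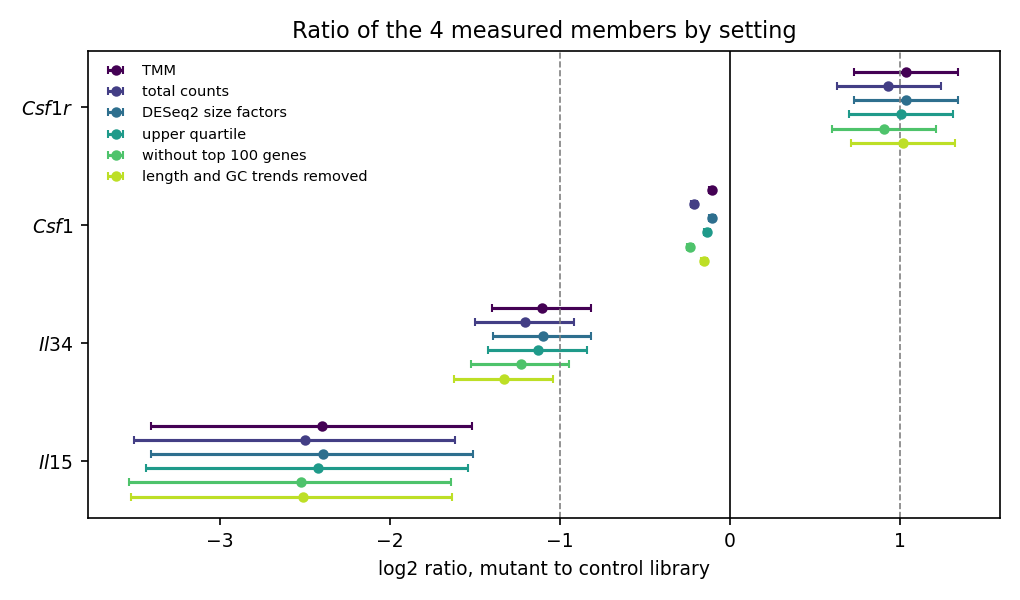
Log2 ratio of mutant to control library for the 4 measured genes with 95% counting intervals, for each library scaling and with length and GC trends removed. Il15 lies wholly below -1 (dashed line) in all 6 settings, Il34 only with the trends removed, and the intervals of Csf1r cross 1 in all 6.

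CSF1R is a defining receptor of macrophages, so its transcript is given beside markers of those cells. Of 20 macrophage and monocyte markers, 18 had a higher scaled level in the mutant library and 1 a lower one, without regard to counting error. The median log2 ratio of all measured genes was 0.01. Only 10 of the 20 markers were measured, and the direction of the others rests on under 20 counts each. Mrc1, with 5 and 4 counts, was higher only by the scaling. Counts of the 20 markers ranged from 0 to 121 in the control and from 0 to 276 in the mutant. Summed over the list, the level was 8.30 CPM in control and 50.4 CPM in mutant. Of the 10 measured markers 9 were called higher, beside 6.98% of all measured genes. Of these 9, 8 had under 20 control counts and were measured by virtue of the mutant library, so their direction was set by being measured. Lyz2, a lysozyme gene that can share reads with its copy Lyz1, had 11 and 276 counts, the perforin-like gene Mpeg1 5 and 62, and Trem2, a macrophage surface receptor gene, 1 and 23. The complement gene C1qa (0 and 24), the cathepsin gene Ctss (0 and 34), the integrin gene Itgam (0 and 30) and the adaptor gene Tyrobp (0 and 20) were at 0 in the control, as were 5 other markers. The chemokine receptor gene Cx3cr1 had 3 and 20 counts. Cd68, a lysosomal membrane protein gene, had 40 and 79 counts and was the measured marker that was not called.

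Csf1r stood at 149 counts in the control library, where the 20 markers ranged from 0 to 121 counts and 9 of them were at 0. These counts are not per length. Per kilobase in the control, Cd14 (3.19 CPM) lay above Csf1r (1.37), Cd68 (1.41) lay level with it, and the other markers lay below. Relative to Lyz2, Csf1r per kilobase was 3.79 in the control (2.06 to 7.76) and 0.232 in the mutant (0.194 to 0.278), a 16.3-fold smaller ratio (8.56 to 34.1). Relative to Cd14, a lipopolysaccharide co-receptor gene with 121 and 237 counts, it was 0.430 (0.336 to 0.551) and 0.337 (0.280 to 0.406), and this change of 0.785 had an interval that includes 1 (0.574 to 1.07). Relative to Cd68 it was 0.975 (0.684 to 1.42) and 0.758 (0.585 to 0.992), and the interval of this change also includes 1 (0.491 to 1.22). Relative to Mpeg1 the ratio was 8.04-fold smaller in the mutant (3.16 to 26.2). These 4 markers were chosen after their values were seen. Lyz2 and Mpeg1 had under 20 control counts and were measured by virtue of the mutant library, which favours a smaller ratio of Csf1r to them there. Cd14 and Cd68 had the lowest ratios between libraries among the measured markers, and the other 8 differed more. The part of macrophages in the Csf1r counts was not tested.

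**Figure D3:**
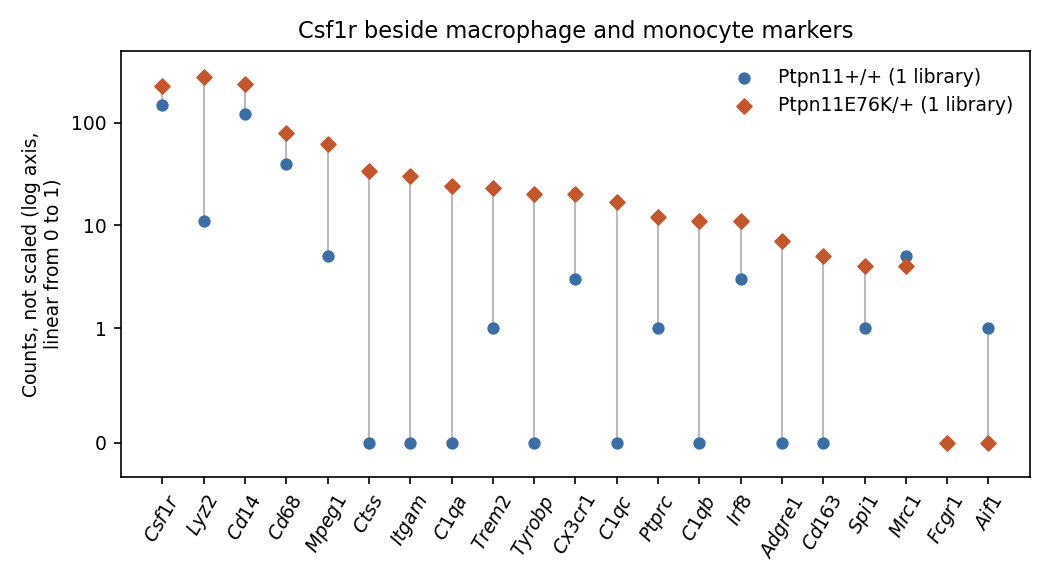
Unscaled counts of Csf1r and of 20 macrophage and monocyte markers in the Ptpn11+/+ (circles) and Ptpn11E76K/+ (diamonds) library, on an axis that is logarithmic above 1. Csf1r (149 and 229) and Cd14 (121 and 237) are well above 0 in both libraries, while 9 markers are at 0 in the control.

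Csf2 and Csf3 were barely present. Csf2 was at 0 in the control library, where the floor of 3 counts is 0.130 CPM and the exact interval reaches 0.1595 CPM, and had 1 count in the mutant library. Csf3 had 2 and 4 counts, a ratio of 2.66 with an interval from 0.381 to 29.4. Both were under the minimum of 20 counts, and no difference was detectable at this depth. Csf2 also overlaps an antisense gene, Gm12223, which had 0 counts in both libraries.

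Il15 was counted 84 times in the control library and 12 times in the mutant one. Per kilobase its level was 1.90 CPM in the control (1.52 to 2.36) and 0.362 in the mutant (0.187 to 0.632). It was 5.26-fold lower in the mutant (2.86 to 10.6), and 3.04% of measured genes had a lower ratio. The call rests on 96 counts in all, and Il15 was not called with a threshold of 4-fold. Its receptor chain gene Il15ra had 128 and 216 counts, and was 2.24-fold higher (1.80 to 2.82) without being called. The receptor chain and its ligand were near each other in the control, with a ratio of Il15ra to Il15 per kilobase of 1.26 (0.946 to 1.67), while in the mutant this ratio was 14.8 (8.32 to 29.2). The ratio was 11.8-fold larger in the mutant library (6.09 to 24.6). Markers of natural killer and T cells, the cells IL-15 acts on, summed over 10 genes to 0 counts in control and 1 in mutant.

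In order of level per kilobase, the control library had Csf1, then Il34, then Il15 and Csf1r, then Csf3 at 0.0612 CPM per kilobase and Csf2 at 0. Within the control library Il15 per kilobase was 1.39 times Csf1r (1.05 to 1.83), and within the mutant library it was 0.129 times Csf1r (0.0657 to 0.230), so their order was reversed. In the mutant library the intervals of Il15, Csf3 (0.163) and Csf2 (0.0719) overlap. Csf1 and Il34 led in both libraries.

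Of 9 other receptor genes of these ligands, 3 were measured and 0 of these were called, beside 15.3% of all measured genes. Sdc1, which encodes the heparan sulphate proteoglycan syndecan-1 that can bind IL-34, had 4985 and 3036 counts and a ratio of 0.810 (0.774 to 0.848). Csf2ra, the ligand-binding chain of the GM-CSF receptor, had 250 and 151 counts and a ratio of 0.803 (0.652 to 0.987). Il15ra was the other measured one. The signalling chains of these receptors were near 0: Csf2rb had 0 and 4 counts, its close copy Csf2rb2, a chain of the interleukin-3 receptor, 0 and 7, Il2rb 4 and 1, and Il2rg 1 and 0. Reads of Csf2rb and Csf2rb2 can be shared. Csf3r, the receptor gene of G-CSF, had 0 counts in both libraries. Ptprz1, a phosphatase gene whose product also binds IL-34, had 11 and 1 counts. The alpha chain genes Csf2ra and Il15ra were thus counted over 100 times in each library, while Csf2rb, Csf2rb2, Il2rb, Il2rg and Csf3r stayed at 7 counts or fewer.

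Among 16 other cytokine genes that act on blood cells, 15 were matched, 8 were measured, 2 were called higher and 1 lower, beside 6.98% and 8.29% of all measured genes. Their median log2 ratio was 0.74, beside 0.01 for all measured genes. Kitl, with 265 and 862 counts, was 4.33-fold higher in the mutant library (3.77 to 4.98). Lif, an interleukin-6 family cytokine gene with 38 and 233 counts, was 8.16-fold higher (5.77 to 11.8). Cxcl12, with 9749 and 2162 counts, was 3.39-fold lower (3.24 to 3.55). Il3, Il5, Epo and Osm had 0 counts in both libraries. Tnfsf11, which encodes RANKL, the partner of CSF1 in making osteoclasts, was at 0 counts in control and 1 in mutant.

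**Figure D4:**
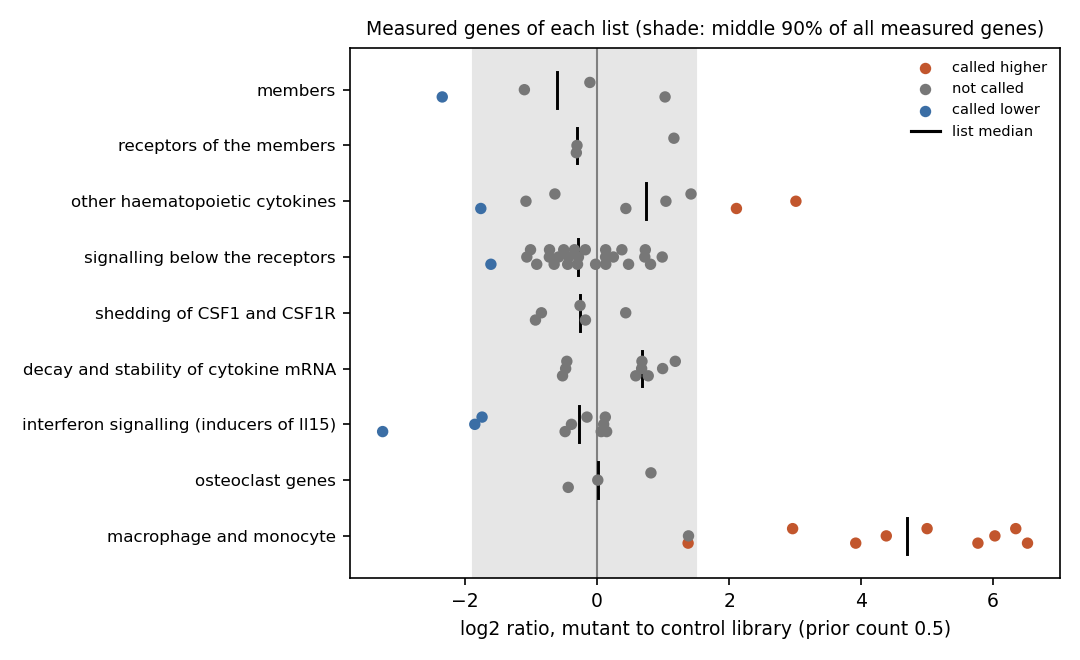
Log2 ratio of mutant to control library for the measured genes of each list, coloured by call, with a black bar at each list's median and the middle 90% of all measured genes shaded. The receptor, shedding, mRNA decay and stability, and osteoclast lists hold no called gene. The measured macrophage markers all lie to the right of 0, most of them having reached 20 counts by their mutant counts alone.

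The signalling proteins below these receptors include JAK kinases and STAT factors for the cytokine receptors, and adaptors, SRC family kinases and PI3 kinase for CSF1R. Of 28 such genes 26 were measured, 1 was called lower and 0 higher, beside 8.29% and 6.98% of all measured genes. Their median log2 ratio was -0.29. Jak3, the kinase that pairs with the Il2rg chain used by IL-15, stood at 545 and 134 counts, 3.06-fold lower in the mutant (2.53 to 3.72). The genes with most counts were Jak1 (6957 and 5719, ratio 1.09), Stat3 (5565 and 2948, ratio 0.705) and the adaptor gene Shc1 (3620 and 2680, ratio 0.985), and none of these was called. Cbl, which encodes the ubiquitin ligase that degrades CSF1R, and Pik3r1, a PI3 kinase subunit gene, were 2.09-fold and 2.01-fold lower without being called. Both were called with totals that omit the 100 most abundant genes, which makes 3 genes called lower, where 10% of all measured genes were called lower.

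CSF1 and CSF1R are both released from the cell surface by the protease ADAM17. None of 5 genes of this step was called, beside 15.3% of all measured genes, with ratios from 0.524 to 1.35. Adam17 had 1884 and 1184 counts and a ratio of 0.836 (0.777 to 0.900). Timp3, the inhibitor gene of that protease, stood at 27402 and 10793 counts, 1.91-fold lower (1.87 to 1.95). The related protease gene Adam10 (6881 and 2883) was 1.79-fold lower (1.72 to 1.88). Rhbdf1, which encodes a partner of ADAM17, had 1851 and 1880 counts and a ratio of 1.35 (1.27 to 1.44).

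Il15 is a known target of interferon signalling, so that pathway was set beside it. Of 10 genes, all were measured, 3 were called lower and 0 higher, beside 8.29% of all measured genes called lower. Their median log2 ratio was -0.27. The called genes encode factors of the response. Irf7 (69 and 5 counts) was 10.4-fold lower (4.24 to 33.0), and it too was measured by virtue of the control library. Stat2 (924 and 192) was 3.62-fold lower (3.09 to 4.25) and Irf9 (785 and 176) 3.35-fold lower (2.84 to 3.97). The other factor genes of the list were not called, with ratios of 0.714 for Irf1, 1.07 for Irf2 and 0.899 for Irf3. The receptor genes with most counts were not called, with ratios of 0.764 for Ifnar1, 1.09 for Ifngr2 and 1.04 for Ifngr1. The part of this pathway in the Il15 difference was not tested.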

How the data were processed

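The authors deposited raw read counts per Ensembl gene, whole numbers without normalization, for 1 library per genotype. Per the submitters' processing notes, CASAVA, TopHat and edgeR were used with build mm9, and no versions are stated. Read counter, annotation release and use of strand were not given in the sources used here. Symbols were found for 34490 identifiers. Transcript lengths and GC content come from GENCODE M21, which is on another build, so coordinates are printed only for the RefSeq window, which was matched by symbol for 2 of the 6 genes and is shown for Csf1. Library totals were scaled by TMM in edgeR 4.0.16 (factors 1.0358 for control and 0.9654 for mutant) in R 4.3.3. Ratios carry Clopper-Pearson intervals from the split of each gene's counts (SciPy 1.17.1). List medians use a prior count of 0.5. The procedure was run on simulated libraries with counting noise only, so this check does not cover spread between animals. There, 2.04% of genes with a true 2-fold difference and 96% with a true 4-fold difference were called. Alternatives were size factors from DESeq2 1.42.0, upper-quartile factors, unscaled totals, totals without the 100 most abundant genes, removal of length and GC trends (mgcv 1.9.3), and other minimums, thresholds and interval levels. The genes named are the 6 members, Ptpn11, Pdgfrb, the receptor list, the called and the 3 most abundant genes of each other pathway list, and the 2 genes nearest to each member with 20 or more counts in each library. Other genes, such as cell type markers, those at 0 counts, antisense genes, Cbl, Pik3r1, Irf1, Irf2 and Irf3, were chosen after their values were seen. The members and lists were chosen with earlier results of these data known. Flt3l was not matched and is not analysed here.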

Additional observations from a re-analysis of the deposited data

How the results depend on the processing

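Il15 was the 1 member called in the 4 other library scalings, beside 15.3% to 15.5% of all measured genes. The same held with no minimum, beside 11.1%, and with 99% intervals, beside 13.3%. At a minimum of 100 counts, which Il15 does not reach, 0 of 3 measured members were called, beside 14.6% of all measured genes. Beyond 4-fold 0 members were called, beside 3.71%. With length and GC trends removed 2 members (with Il34) were called, beside 14.4%. Beyond 1.5-fold 3 members (with Il34 and Csf1r) were called, where 31.3% of measured genes were called. The Csf1 ratio was 0.864 with total counts, 0.9105 with upper-quartile factors, 0.849 without the 100 most abundant genes and 0.900 with the trends removed, each outside its counting interval and below 1. Beyond 1.5-fold, 1 receptor gene (Il15ra), 5 signalling genes and 4109 genes in all were called, and beyond 4-fold 1 of the other cytokine genes (Lif), 0 signalling genes and 488 genes in all. Without the 100 most abundant genes 3 signalling genes were called. With exon union length, Csf1 stood at 534 and 495 CPM per kilobase, and the order of the 4 measured genes did not change in either library. No paired analysis was possible because each genotype has 1 library. Depth limits Csf2, Csf3 and the receptor chains near 0, and the absence of replicates limits every difference.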

Other observations

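CSF1 and RANKL together drive osteoclast formation. Of 11 genes of osteoclasts or of their control, 3 were measured and 0 were called, beside 15.3% of all measured genes. These 3 do not tell whether osteoclasts were present. Tnfrsf11b, which encodes the RANKL decoy osteoprotegerin, stood at 3438 control and 1909 mutant counts, a ratio of 0.739 (0.698 to 0.781). Ctsk, the cathepsin K gene, had 1017 and 1346 counts and a ratio of 1.76 (1.62 to 1.91), and Nfatc1 had 882 and 668 counts and a ratio of 1.01 (0.910 to 1.11). Dcstamp, Ocstamp and Calcr, genes of mature osteoclasts, had 0 counts in both libraries, and the RANK gene Tnfrsf11a had 0 and 2.

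Messenger RNA of Csf2, Csf3 and similar cytokines is short-lived through binding proteins that recruit decay enzymes. The list set beside them holds 9 genes of decay and of stability of such messages. All 9 were measured and 0 were called, beside 15.3% of all measured genes. Their ratios ran from 0.696 to 2.28 and their median log2 ratio was 0.68, beside 0.01 for all measured genes. This median mixes both functions and does not stand for decay alone. Zfp36l2 (5145 and 6198 counts, ratio 1.60), Khsrp (3853 and 4349, ratio 1.501) and Hnrnpd (2784 and 4167, ratio 1.99) had the most counts.

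Counts for markers of other cell types were few. Granulocyte markers summed to 15 and 2 counts over 10 genes, B cell markers to 6 and 4 over 5, erythroid markers to 10 and 3 over 5, and endothelial markers to 6 and 20 over 5. Of 10 mesenchymal stromal markers 9 were measured, 2 were called higher (Nes and Thy1) and 2 lower (Ly6a and Prrx1), beside 6.98% and 8.29% of all measured genes. The collagen genes Col1a1 (131912 and 173952 counts) and Col3a1 (31201 and 22020) had the most counts of this list and were not called.

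Among 11454 other genes with at least 20 counts in each library, those nearest to a member in the plane of log2 level per kilobase in control and in mutant were as follows. Csf1 lay nearest to the mitochondrial genes mt-Nd5 (distance 0.14, 31279 and 20111 counts) and mt-Nd4. Il34 lay nearest to Dsel (distance 0.02, 1238 and 427 counts) and Pfkfb3. Csf1r lay nearest to Tbx3 (distance 0.07, 164 and 249 counts) and 2310057M21Rik. With 2 libraries, this likeness rests on 2 values per gene.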
